A study of Mus musculus with 20 samples.

Results

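Chromatin immunoprecipitation with sequencing of RAD21, a subunit of cohesin, was compared between untreated and auxin-treated mouse embryonic stem cells that lack MAZ. The material was 2 lists of called peaks, with 20872 RAD21 peaks from the untreated cells and 6400 from the auxin-treated cells, together 27272 of the 136043 peaks in the 12 peak lists of the series. An untreated peak was counted as retained if a peak of the auxin list overlapped it by at least 1 bp and as lost if none did, and an auxin peak without an untreated partner was counted as auxin-only.

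Cohesin is a ring-shaped complex that extrudes chromatin into loops, and RAD21 is the subunit that closes the ring. CTCF, a zinc finger protein, stops the moving ring when cohesin meets it from one side of its asymmetric DNA motif, so that most sharp RAD21 peaks of a mammalian cell lie at CTCF sites. Cohesin can also pause or load at active promoters and enhancers. MAZ is a zinc finger protein that binds G-rich DNA, often at promoters, and has been described as an insulation factor beside CTCF.

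The cells were E14 mouse embryonic stem cells grown with LIF and 2 kinase inhibitors, and all of them carried CTCF with an auxin-inducible degron, which lets auxin trigger destruction of the protein. Maz knockout cells without auxin are written ΔMAZ and those kept in auxin for 2 days ΔCTCF/ΔMAZ. The parental degron cells without auxin (WT) and with auxin (ΔCTCF) and the CTCF and MAZ lists serve here only for reference. The titles of the knockout samples give the name B2, and the study's methods describe such lines as grown from single clones, so that the knockout was seen in 1 line. Each RAD21 condition had 1 list, so differences below could not be checked against replicates and were not tested. The Wilson 95% confidence intervals given with shares cover counting error over peaks only.

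The labels were checked against the CTCF and MAZ lists. The CTCF list of ΔMAZ held 26053 peaks and that of ΔCTCF/ΔMAZ 2570, and 9.72% of the former were called in the latter. The MAZ antibody gave 33 peaks in each knockout condition and 6265 in WT. The background behind the peaks put the ΔMAZ RAD21 library at 1.39 times the depth of the ΔCTCF/ΔMAZ library. Scaling the untreated pileup and background down by that ratio removed 225 peaks and left 20647.

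The sequences of a pair of sites from each class show the kinds of DNA at the summits. For the lost and retained classes they are the strongest that hold a CTCF core, and for the auxin-only class the strongest promoters outside UTRs. Each is 101 bp of the GRCm38 (mm10) plus strand around a RAD21 summit, taken from the RefSeq assembly. In the lost and retained sites, capitals mark the CTCF core on either strand, which is CC, AG and GGC with 3 and then 2 free bases between them, and in the auxin-only sites, for which no CTCF core was required, capitals mark CG steps. The lost sites lay in introns of Dpys (chr15:39817210-39817310) and Klf3 (chr5:64813597-64813697). The retained sites were intergenic, with Aqp7 (chr4:41050824-41050924) and Anxa4 (chr6:86806560-86806660) as the genes with the nearest TSS. The auxin-only sites were promoters, of Gm12743 (chr4:108619690-108619790) and Bud13 (chr9:46282836-46282936), and held 11 and 5 CG steps.
Lost, Dpys: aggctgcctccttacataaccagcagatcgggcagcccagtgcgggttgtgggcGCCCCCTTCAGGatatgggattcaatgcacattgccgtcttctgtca
Lost, Klf3: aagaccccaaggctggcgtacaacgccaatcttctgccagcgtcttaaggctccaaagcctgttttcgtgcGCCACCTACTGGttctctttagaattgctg
Retained, Aqp7: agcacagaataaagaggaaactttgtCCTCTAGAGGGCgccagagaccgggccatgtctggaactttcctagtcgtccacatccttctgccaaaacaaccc
Retained, Anxa4: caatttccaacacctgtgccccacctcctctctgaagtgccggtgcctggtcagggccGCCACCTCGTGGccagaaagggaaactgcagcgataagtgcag
Auxin-only, Gm12743: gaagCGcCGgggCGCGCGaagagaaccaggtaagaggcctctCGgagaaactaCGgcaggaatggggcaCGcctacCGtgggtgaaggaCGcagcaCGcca
Auxin-only, Bud13: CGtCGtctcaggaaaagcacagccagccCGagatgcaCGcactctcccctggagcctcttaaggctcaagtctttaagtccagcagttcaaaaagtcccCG

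Of the RAD21 peaks deposited for ΔMAZ, most had no partner in the list made after CTCF degradation. Of 20872 untreated peaks, 4679 were retained, a share of 22.4% (95% interval 21.9 to 23.0), and 16193 were lost. The lists differ in length, and of the 6400 strongest untreated peaks 51.7% were retained. In the auxin list, 4679 peaks were retained and 1721 were auxin-only, a share of 26.9% (25.8 to 28.0). The retained sites formed 4691 overlapping pairs, because 12 untreated and 11 auxin peaks overlapped more than 1 partner. In a bulk ChIP, fewer cells with cohesin at a site and less cohesin there per cell cannot be told apart.

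The classes differed in strength, given as fold enrichment, which is the ratio of the pileup at the summit to the local background with a pseudocount of 1. Fold enrichment ranks peaks within a library and is not on a common scale between libraries. Untreated peaks that were retained had a median fold enrichment of 20.5 (quartiles 13.3 and 28.9), against 8.47 (6.01 and 12.8) for lost peaks. None of the 100 strongest untreated peaks was lost, and 121 of the 1000 strongest were, the strongest at rank 119. Within the auxin list, retained peaks had a median of 7.68 (5.95 and 10.8) and auxin-only peaks 5.14 (4.62 and 5.84). The strongest auxin-only peak stood at rank 1172 of the auxin list. Auxin-only peaks were also the narrowest, with a median width of 212 bp against 262 bp for retained peaks of the same list.

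CTCF peaks in the same cells separated the untreated RAD21 peaks further. A CTCF peak was still called after auxin at 2457 of them, was called in ΔMAZ but not after auxin at 14921, and was called in neither list at 3494. RAD21 was retained at 81.5% (79.9 to 83.0) of the sites with CTCF still called, at 14.4% (13.9 to 15.0) of those where the CTCF peak was gone, and at 15.0% (13.9 to 16.2) of those without a CTCF peak. Sites with CTCF still called were also stronger in RAD21 before auxin, with a median fold enrichment of 21.5, against 10.4 where CTCF was gone and 5.40 where there was no CTCF peak.

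When untreated peaks were split into 5 equal groups by RAD21 strength, sites with CTCF still called kept RAD21 more often in each group. In the weakest group (fold enrichment up to 5.79), 39.6% (27.0 to 53.7) of the 48 sites with remaining CTCF were retained, against 1.29% (0.870 to 1.91) of 1858 sites where CTCF was gone. In the strongest group (18.7 and above), the same shares were 93.6% (92.2 to 94.7) of 1479 sites and 46.8% (45.0 to 48.7) of 2688 sites. Some difference in strength remained within that group, with median fold enrichments of 28.2 and 24.1.

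Sites without a CTCF peak showed no such rise. Their retained share was 15.9% (14.4 to 17.4) in the weakest group, 14.8% (12.6 to 17.3) in the next, 10.1% (7.06 to 14.2) in the third and 9.84% (4.59 to 19.8) in the fourth, where only 61 sites were left. In the 3 weakest groups, peaks without CTCF were retained more often than peaks whose CTCF was gone, at 10.1% against 5.57% (4.87 to 6.36) in the third. In the 2 strongest groups the order was turned, with overlapping intervals in the fourth and with just 8 sites without CTCF in the last. The pooled shares of 14.4% and 15.0% had overlapping intervals. Their order also turned with other settings, at 15.5% and 10.2% for a reciprocal overlap of 50% and at 13.5% and 6.88% when only peaks with a −log10 q of 5 or more were used.

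**Figure D1:**
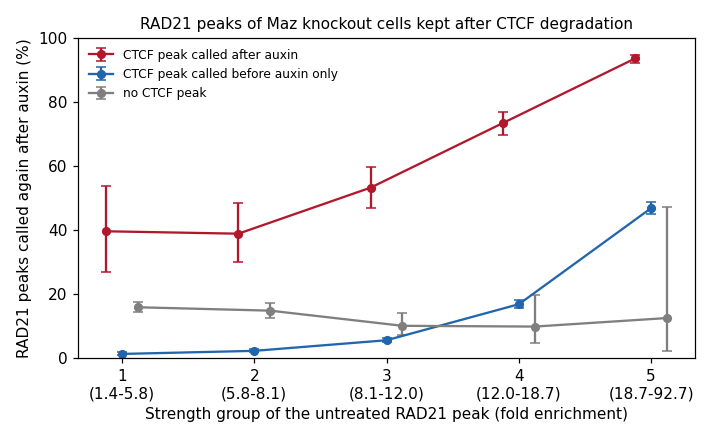
Share of untreated RAD21 peaks of Maz knockout cells called again after auxin (y axis, percent) in 5 equal groups of untreated RAD21 fold enrichment (x axis, weakest to strongest), with Wilson 95% intervals. Sites with a CTCF peak after auxin (red) lie above the others in every group and rise from 39.6% to 93.6%, sites that lost their CTCF peak (blue) rise from 1.29% to 46.8%, and sites with no CTCF peak (gray) stay between 9.84% and 15.9%.

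Promoters stood out among the weak peaks. A promoter peak is one whose summit lay within 1 kb of an annotated transcription start site (TSS) of a protein-coding or long noncoding gene. In the weakest group, sites whose CTCF peak was gone were retained at 15 of 189 promoters, or 7.94% (4.87 to 12.7), and at 9 of 1669 other sites, or 0.539% (0.284 to 1.02). Among the strongest sites, the shares were 58.8% (52.5 to 64.9) at 238 promoters and 45.7% (43.7 to 47.7) elsewhere. Without a CTCF peak, promoter sites were retained at 19.97% (17.1 to 23.2), 25.5% (19.2 to 33.1) and 40.6% (25.5 to 57.7) in the 3 weakest groups, the last from 32 sites. Non-promoter sites without a CTCF peak went the other way over the same groups, from 14.2% (12.6 to 16.0) to 12.6% (10.4 to 15.2) and 6.10% (3.73 to 9.82). With CTCF still called, promoters and other sites had overlapping intervals, at 79.9% (75.1 to 83.9) and 81.8% (80.1 to 83.3).

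The strength of CTCF binding before auxin followed the same order. Across 5 equal groups of CTCF fold enrichment in ΔMAZ, the RAD21 retained share went from 2.56% in the weakest to 8.03%, 18.4%, 32.4% and 58.1% in the strongest. The share of these sites with CTCF still called went from 0.719% to 46.2% over the same groups, and the median RAD21 fold enrichment from 7.33 to 19.6, so these measures moved together and their parts were not separated. Where the CTCF peak was gone, the CTCF fold enrichment before auxin had a median of 21.3 at retained sites and 13.7 at lost sites. Where CTCF was still called, its fold enrichment after auxin had a median of 8.84 (7.53 and 11.9) at 2003 retained sites and 7.53 (6.48 and 8.55) at 454 lost sites. A called CTCF peak after auxin was thus found at 2.80% of lost sites.

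At retained sites the order of RAD21 strength was partly preserved. Over the 4691 pairs, Spearman's rho between fold enrichment before and after auxin was 0.60, given as a description across sites of 2 libraries. It was 0.62 over 2007 pairs with CTCF still called, 0.47 over 2150 pairs whose CTCF peak was gone and 0.22 over 534 pairs without CTCF. The median fold enrichment was 24.0 before and 9.85 after auxin at pairs with remaining CTCF, and 20.8 and 6.87 at pairs whose CTCF was gone. It was 5.20 and 5.49 at pairs without CTCF. The 2 lists are not on a common scale, so the size of these differences does not measure a change in cohesin. The pairs without CTCF were low in both lists and had to be called in each, so their medians show neither a gain nor an unchanged level.

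**Figure D2:**
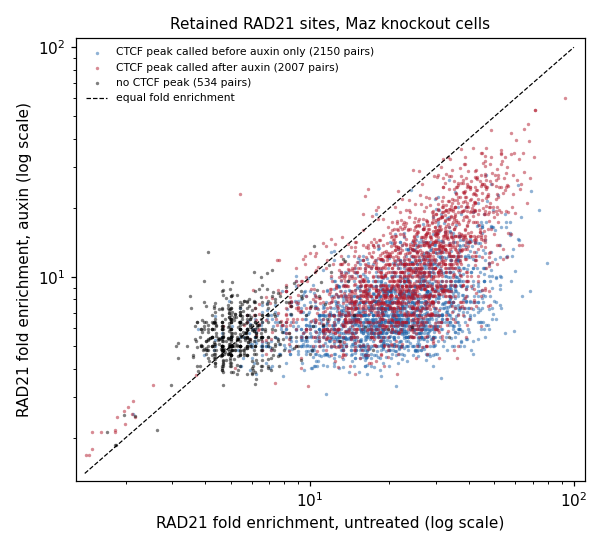
RAD21 fold enrichment of 4691 retained pairs before auxin (x axis) and after auxin (y axis), both on log scales, each point 1 pair and coloured by CTCF state, with a dashed line of equal values. Pairs at CTCF sites (red and blue) lie below the line almost throughout, and pairs without a CTCF peak (black) gather around the line at the low end of both axes, next to the calling limit of each list. Fold enrichment is not on a common scale between the lists, so the line is a guide only.

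Summits of retained pairs mostly stayed in place. Pairs are defined by overlap, so a move that ended the overlap of the peaks could not enter this measure. The median distance between the untreated and the auxin summit was 20 bp, and 82.5% of the pairs were within 50 bp. The median was 16 bp with CTCF still called and 19 bp where CTCF was gone. Pairs without a CTCF peak were looser, with a median of 68 bp and 38.6% within 50 bp. These pairs had the lowest fold enrichment, and the part of peak height in this spread was not tested.

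The CTCF core, searched on both strands, was read in the 101 bp around each summit and in windows of the same length 500 bp to each side. It was found at 44.8% (44.1 to 45.6) of lost summits and at 53.6% (52.1 to 55.0) of retained summits in the untreated list, against 1.69% and 1.98% of the windows beside them. At the auxin summits of retained sites the share was 45.8% (44.4 to 47.2). At auxin-only summits it was 3.25% (2.51 to 4.20), against 2.38% beside them.

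The core lay to one side of the RAD21 summit. Over sites with exactly 1 core within 100 bp, the untreated summit was a median of 20.5 bp beyond the centre of the core, in the direction in which the core reads from CC to GGC, at both lost and retained sites. The summit lay on that side at 84.8% of 8169 lost and 92.1% of 2615 retained sites. After auxin, the retained summits had a median of 21.5 bp on the same side, and 82.0% of 2571 lay there. CTCF summits of ΔMAZ had their median on the other side of the core centre, at −9.5 bp, and 33.3% of 14497 lay on the side of the RAD21 summits. In the 2534 retained pairs with exactly 1 core near each summit, 92.5% of the summits lay beyond the core before auxin and 82.2% after, and 80.8% of the pairs had both summits on the same side. The share after auxin was 83.4% of 1224 pairs with CTCF still called and 81.5% of 1286 pairs whose CTCF peak was gone.

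**Figure D3:**
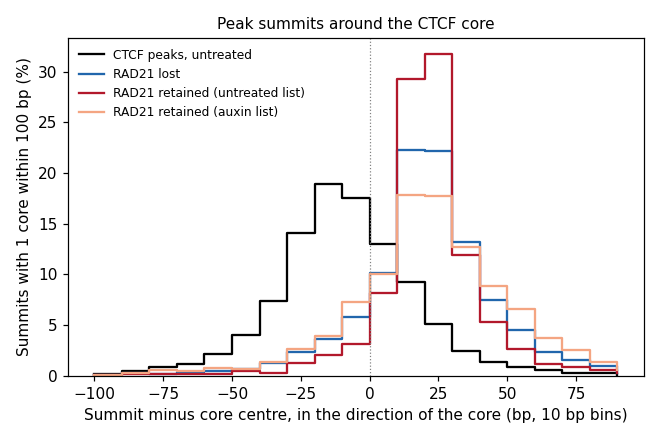
Distance of the peak summit from the centre of the CTCF core, in the direction of the core (x axis, 10 bp bins), as the percent of summits with exactly 1 core within 100 bp (y axis). RAD21 summits of lost sites (blue), retained sites before auxin (red) and retained sites after auxin (pale red) are shifted to positive distances with medians of 20.5 to 21.5 bp, and CTCF summits of untreated cells (black) to negative ones with a median of −9.5 bp.

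The core also divided the RAD21 peaks that had no CTCF peak. Among the 3494 such peaks, a core lay at 550 summits, and RAD21 was retained at 3.27% (2.08 to 5.11) of these and at 17.2% (15.9 to 18.6) of the 2944 without a core. In the weakest strength group the shares were 5.78% (3.41 to 9.63) of 225 sites and 17.0% (15.4 to 18.7) of 2044 sites, and in the next group 1.44% (0.492 to 4.15) of 208 and 18.96% (16.2 to 22.1) of 670. A core was found at 17.9% of the lost summits without a CTCF peak, against 1.99% of the windows beside them. Where the CTCF peak was gone, the order was the opposite, at 16.4% (15.5 to 17.2) with a core and 12.3% (11.6 to 13.1) without. Sites with a core were also the stronger ones there, with a median fold enrichment of 10.8 against 9.97, and the order held in the strongest group, at 51.1% (48.5 to 53.6) and 41.5% (38.7 to 44.3), but not in the weakest, at 0.806% (0.391 to 1.65) and 1.72% (1.08 to 2.74). Where CTCF was still called, 82.5% with and 80.1% without a core were retained.

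Gene position differed most for the auxin-only sites. Of 1721 auxin-only summits, 43.1% (40.7 to 45.4) lay at promoters, against 14.8% (13.8 to 15.8) of retained and 10.8% (10.3 to 11.3) of lost untreated peaks. With a promoter reach of 2.5 kb the shares were 47.6% of auxin-only and 17.6% of lost peaks. These classes are not matched for CTCF, and 97.2% of auxin-only sites had no CTCF peak in either list. Among sites without a CTCF peak, 42.9% of auxin-only, 35.2% of retained untreated and 22.3% of lost peaks lay at promoters. Over all sites, 21.0% of auxin-only, 5.94% of retained and 3.53% of lost summits lay within 100 bp of a TSS. Retained peaks were intergenic in 51.9% (50.5 to 53.4) and intronic in 29.3% (28.0 to 30.6), whereas lost peaks were divided evenly at 42.5% (41.7 to 43.2) and 42.2% (41.4 to 43.0). The parental cells showed a like order. There, 50.5% of retained and 42.1% of lost peaks were intergenic, and 32.5% and 46.1% were intronic. In the knockout lists, the median distance to the nearest TSS was 3337 bp for auxin-only peaks, 12670 bp for retained and 14410 bp for lost peaks. Seen by position, RAD21 was retained at 28.3% (26.6 to 30.2) of promoter peaks, 26.1% (25.2 to 27.0) of intergenic peaks and 16.7% (15.9 to 17.5) of intronic peaks. Promoter peaks were retained at this share although their median fold enrichment of 7.38 was below the 10.7 of intergenic peaks, and 34.7% of them had no CTCF peak, against 15.2% of intergenic peaks.

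**Figure D4:**
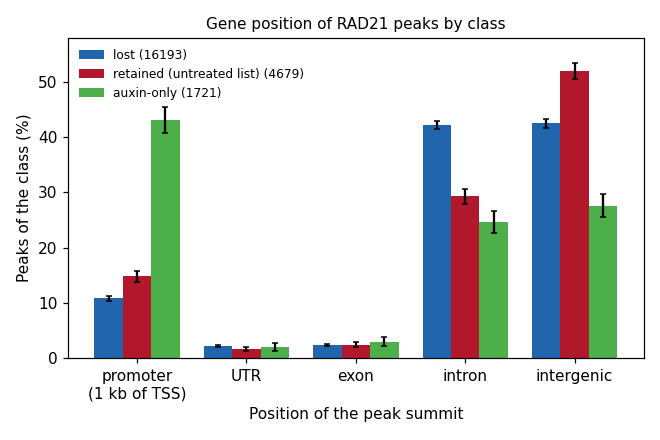
Percent of lost, retained and auxin-only RAD21 peaks (bars, with Wilson 95% intervals) whose summit lay at a promoter, in a UTR, exon or intron, or between genes. Auxin-only peaks are at promoters in 43.1%, against 14.8% of retained and 10.8% of lost peaks, and retained peaks are the most often intergenic at 51.9%. The classes are not matched for CTCF, and 97.2% of auxin-only peaks had no CTCF peak.

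Called CTCF was rare at auxin-only sites. In part this follows from the class rule, which leaves out sites with an untreated RAD21 peak, most of which held CTCF. A CTCF peak of ΔMAZ overlapped 47 of the 1721, or 2.73% (2.06 to 3.61), and one of ΔCTCF/ΔMAZ overlapped 12, or 0.697% (0.399 to 1.21). With a reciprocal overlap of 50% these shares were 9.75% and 4.05%, and the CTCF core was at 6.68% of the summits when read within 100 bp. For retained sites the overlap shares were 88.7% and 42.8%. Of the auxin-only summits, 5.29% lay within 1 kb and 16.7% within 5 kb of a lost summit. For any untreated RAD21 summit the shares were 6.97% and 23.7%, with a median distance of 16866 bp. The auxin-only share of the auxin list fell with strength, from 61.2% (58.5 to 63.8) of the weakest of 5 equal groups over 45.7%, 21.6% and 5.70% to 0.313% (0.122 to 0.801) of the strongest, where 4 of 1280 peaks were auxin-only. The auxin-only class thus lay next to the calling limit, and its share was 15.2% when both lists were limited to peaks with a −log10 q of 5 or more.

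At promoters, several strings were more frequent at auxin-only summits than beside them. Of the 9 strings searched, the GC box GGGCGG, which Sp and Klf factors bind, was at 37.0% (33.6 to 40.5) of 741 promoter summits and at 12.6% of windows beside them. The ETS string CCGGAAG was at 6.88% (5.27 to 8.94), against 1.62% beside. The CRE TGACGTCA, bound by CREB and ATF factors, was at 15 of the 741, or 2.02% (1.23 to 3.31), against 3 of 1482 windows beside. The G run GGGAGGG, of the kind MAZ binds, was at 9.04% (7.18 to 11.3), against 7.15% beside, or 1.26 times as often. Promoter peaks of the other classes carried the same strings at lower shares. The GC box was at 26.4% of retained and 22.6% of lost untreated promoter summits, and the ETS string at 3.18% and 2.97%.

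Away from promoters, the GC box was at 7.55% of auxin-only summits, against 2.35% beside. The octamer ATTTGCAT, bound by POU factors such as OCT4, was at 17 of 980, or 1.73% (1.09 to 2.76), against 6 of 1960 windows beside, or 0.306%. At lost summits without a CTCF peak it was at 21 of 2969, or 0.707% (0.463 to 1.08), against 0.404% beside, and over all lost summits at 0.358%, against 0.531% beside. At retained auxin summits without a CTCF peak it was at 8 of 528, or 1.52% (0.770 to 2.96), against 0.284% beside, and at the untreated summits of such sites at 9 of 525, or 1.71% (0.904 to 3.23), against 0.857% beside. The E-box CACGTG was at 3.06% (2.15 to 4.34) of the auxin-only summits away from promoters, against 2.04% beside. The AP-1 string TGACTCA (2.45% and 1.89%) and the G run (6.43% and 5.56%) had intervals that held the value beside. The YY1 string AAGATGGC was at 1 of the 980, or 0.102% (0.0180 to 0.576), against 0.663% beside. It was at 1.69% of lost summits, where 0.710% of the windows beside held it. A string match is not a bound factor, and base composition also differed, with a median GC content of 66.3% at auxin-only promoter summits, 63.4% at retained and 61.4% at lost ones, and 52.5% in the windows beside the auxin-only promoter summits.

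**Figure D5:**
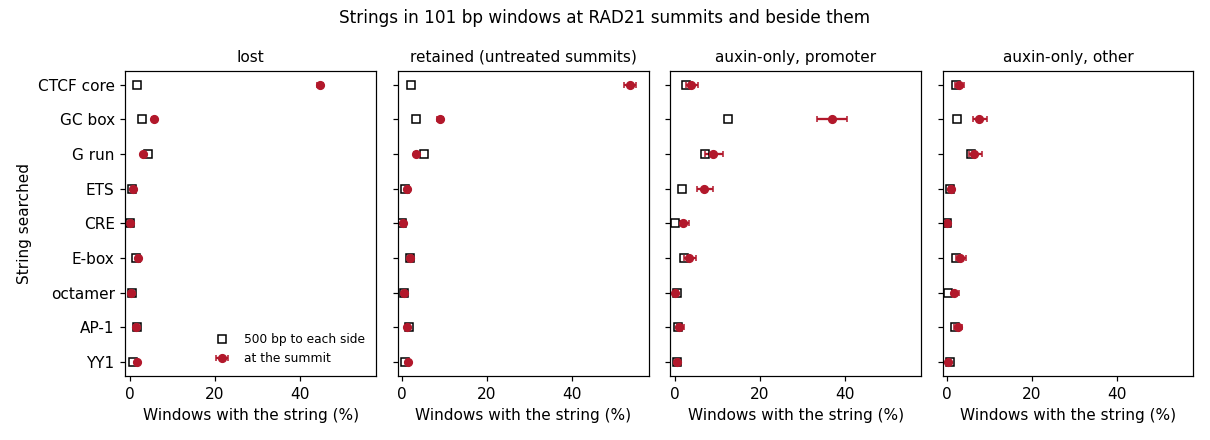
Percent of 101 bp windows that hold each of 9 named strings (x axis) at RAD21 summits (red, with Wilson 95% intervals) and 500 bp to each side (open squares), for lost sites, retained sites at untreated summits, and auxin-only sites at promoters and elsewhere. The CTCF core stands out at lost and retained summits at 44.8% and 53.6%, and the GC box at auxin-only promoter summits at 37.0%.

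The parental cells, which hold MAZ, gave a reference for each class. RAD21 was called at 20371 sites in WT and at 17912 in ΔCTCF, so the parental auxin list was nearly as long as the untreated one and was longer than the 6400 peaks of ΔCTCF/ΔMAZ. Retained sites were called in both parental lists in 87.7% (86.7 to 88.6). Lost sites were called in WT in 78.4% (77.8 to 79.0) and in ΔCTCF in 25.5% (24.9 to 26.2). Among the strongest of the 5 untreated strength groups, 57.9% (55.4 to 60.3) of the 1531 lost sites had a RAD21 peak in ΔCTCF, and from the weakest group up the shares were 21.4%, 12.1%, 19.2% and 39.3%. These lists differ in library as well as in genotype, which cannot be told apart with 1 list each.

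Auxin-only sites were called in ΔCTCF in 52.7% (50.3 to 55.1) and in WT in 6.51% (5.44 to 7.77). Over the whole auxin list 82.9% were called in ΔCTCF, and over the untreated list 40.9%. Neither parental list held 792 of them, or 46.0% (43.7 to 48.4). The share called in ΔCTCF was 45.6% in the weakest strength group of the auxin list and 72.6% of 73 sites in the second strongest. It was 52.0% of promoter and 53.3% of other auxin-only sites, beside 71.0% of all promoter peaks of the auxin list. MAZ peaks of WT overlapped 33.2% of auxin-only promoter sites and 7.14% of the others. Over all promoter peaks, that share was 29.7% in the auxin list and 20.1% in the untreated list.

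The lost sites of highest fold enrichment were CTCF sites. The peak in the Dpys intron printed above, in a gene for an enzyme of pyrimidine breakdown, had a fold enrichment of 49.0 in ΔMAZ, with a pileup of 126 fragments over a background of 1.59, and no peak after auxin. Klf3, a Krüppel-like transcriptional repressor, followed with 48.0 in an intron. Idnk, a gluconate kinase gene, had 45.6 in an intron, an exon of Nynrin had 44.3, and an exon of BC034090 had 43.6. CTCF stood at fold enrichments of 17.9 to 35.3 at these 5 sites before auxin, and the Nynrin site still had a CTCF peak of 7.37 after auxin. Of the 5, all were called in WT and all but the BC034090 site in ΔCTCF.

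Among coding promoters, the strongest lost peak was that of Tcf7l1, a repressor of Wnt target genes in embryonic stem cells, with 43.2 at 358 bp upstream of the TSS. Gm12216 had 43.1 and Caskin2, a scaffold protein gene, had 34.0. Top1mt, which encodes the mitochondrial topoisomerase, had 33.0 and was the only one of the 8 promoters with CTCF still called, at 6.35 after auxin against 47.2 before. Tshr, the thyrotropin receptor gene, had 32.9, Katnbl1 32.4 and Ppdpf 31.2. Gad1, which encodes an enzyme of GABA synthesis, had 31.0 and the lowest CTCF value of the 8, at 10.3. All 8 promoter peaks were called in WT and in ΔCTCF.

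The strongest retained sites were intergenic and held CTCF in both conditions. The peak 2735 bp from the Aqp7 TSS was first in both lists, with 92.7 before and 60.0 after auxin. Its CTCF fold enrichment was 20.7 before and 14.1 after. The Anxa4 peak went from 71.0 at rank 5 to 53.1 at rank 2, and the peak near 9330182O14Rik from 71.4 to 53.1. Peaks near Commd7 went from 67.0 to 46.2 and near Gm5533 from 64.5 to 43.9. All 5 stood within rank 14 of the untreated list.

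All 8 strongest retained coding promoters also kept a CTCF peak. Dop1a had a RAD21 fold enrichment of 52.9 before and 31.1 after auxin. Nob1, which encodes an endonuclease of ribosomal RNA maturation, was the one of the 8 that was higher after auxin, at 24.5 and 29.2, and stood at rank 2262 before and 43 after. Its pileup was 89 before and 88 after. The lists differ in length and depth, so these values do not show a gain at Nob1. Parp3 went from 55.5 to 28.3, Grm4, a metabotropic glutamate receptor gene, from 46.0 to 28.1, Radil from 50.2 to 27.9 and Spata20 from 51.7 to 27.9. Trappc5, of the TRAPP trafficking complex, went from 67.9 to 27.0, and Slc36a1, an amino acid transporter gene, from 32.0 to 26.9. Their CTCF values after auxin lay between 8.16 for Dop1a and 32.4 for Grm4.

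The strongest auxin-only peaks were weak beside these. A site 12317 bp from the Igsf21 TSS had 10.8, the Klc2 promoter 10.8, a Pdgfrl intron 10.5, a site near E330017L17Rik 10.5 and an intron of Zmiz1 10.1. These 5 sites had no CTCF peak in either knockout list and no RAD21 peak in WT, and all but the E330017L17Rik site were called in ΔCTCF. At the Klc2 promoter, a kinesin light chain gene, the pileup was 23 fragments over a background of 1.23. MAZ was called in WT at 3 of the 5, the Igsf21, Klc2 and Zmiz1 sites.

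The other auxin-only promoters ran from 9.16 to 8.53. Cc2d1b, which shares its start region with Gm12743, and Golga7b both had 9.16. The splicing factor gene Bud13 also had 9.16 and had held a CTCF peak of 5.81 in ΔMAZ. Zfp41, a zinc finger gene, had 9.15 and a CTCF peak of 8.22 in ΔMAZ. Sgcb, a sarcoglycan gene, had 8.70, and it was the one of the 8 not called in ΔCTCF. Dgat2, which encodes an enzyme of triglyceride synthesis, and Dmap1, a subunit gene of the TIP60 chromatin complex, both had 8.53. MAZ was called in WT at the promoters of Cc2d1b, Bud13 and Zfp41.

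Genes were then counted by their promoters. Of 21951 protein-coding genes, 1986 had an untreated RAD21 summit within 1 kb of a TSS, and 634 of these, or 31.9%, also had one after auxin. Of the 19965 genes without an untreated one, 703, or 3.52%, had one after auxin. With the gene body and 10 kb on each side, 10637 genes had an untreated summit and 38.5% of these had one after auxin. Neighbouring genes share peaks in such counts, and the summits before and after auxin need not be the same site.

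Hox genes set position along the body axis and lie in 4 clusters. Untreated RAD21 lay in or near 31 of 39 members, beside 10637 of all 21951 coding genes. Of the 31, 23 or 74.2% also had a summit there after auxin, beside 38.5% of all coding genes. Hox members lie close together, so their 10 kb flanks overlap and the same peak was counted for several of them. An untreated promoter peak was found at 6 of the 39, or 15.4% beside 9.05% of all coding genes. Of these 6, 4 also had one after auxin, or 66.7%, beside 31.9% of all coding genes. Hoxc10 had 39.8 before and 17.4 after auxin, Hoxa5 29.9 and 16.5, and Hoxb5 25.5 and 7.78, all with CTCF called in both conditions. At Hoxc13, where neither list had CTCF, RAD21 was at 6.15 before and 10.5 after. Hoxd10 (13.5) had no promoter peak after auxin, and Hoxb9 was listed only after auxin, at 4.58.

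Cytosolic ribosomal protein genes had untreated promoter peaks at 7 of 79, or 8.86%, beside 9.05% of all coding genes, and 11 had one after auxin, or 13.9% beside 6.09%. Of the 72 without an untreated peak, 8 had one after auxin, or 11.1%, beside the 3.52% of all genes. Among these were Rps20 (6.87) and Rpl7 (6.56). Rpl26 went from 11.2 to 7.03 and Rpl36 from 7.44 to 6.59, both with CTCF in both conditions.

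Of 26 pluripotency factor genes, 5 had an untreated promoter peak, or 19.2% beside 9.05% of all coding genes. Of these 5, 2 also had one after auxin, or 40%, near the 31.9% of all coding genes. Klf2 had 4.35 before and 7.72 after auxin and Tbx3 10.2 and 4.80, neither with a CTCF peak at the promoter. In or near Tbx3 there were 3 untreated CTCF peaks. Mycn (8.08), Esrrb (5.14) and Myc (4.16) had none after auxin. Of 17 with an untreated summit in or near the gene, 9 also had one after auxin, or 52.9%, beside 38.5% of all coding genes. Of 17 genes for cohesin and its regulators, 5 had an untreated promoter peak, or 29.4% beside 9.05% of all coding genes. Of these 5, 2 also had one after auxin, or 40%, again near the 31.9% of all coding genes. Pds5b, a regulator of cohesin release, went from 33.3 to 19.2 with CTCF in both conditions, and Stag1 from 6.56 to 5.49. The promoters of Stag2 (16.6) and Smc3 (8.29) had no peak after auxin, and the Rad21 promoter itself was listed only after auxin, at 4.64.

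The remaining lists held few promoter peaks each and are set beside all coding genes, of which 9.05% had an untreated promoter peak. Of 17 matched insulator and G-rich zinc finger genes, 4 had one, or 23.5%. Wiz also had one after auxin (4.25 and 5.04), Zfp341 (11.5), Patz1 (6.24) and Adnp (6.06) did not, and Yy1 (5.49) and Sp3 (5.24) were listed only after auxin, which is 15.4% of those without an untreated peak beside 3.52% of all coding genes. Of 34 imprinted genes, Zim1 (4.35) was the one with an untreated promoter peak, or 2.94%, and Trappc9 (4.94) and Kcnq1 (4.62) were listed only after auxin. Of 71 histone genes, 2 had an untreated promoter peak, or 2.82%. Hist4h4 also had one after auxin (5.54 and 6.75) and Hist1h4j (5.91) did not, while H1fx (6.41) and Hist2h4 (3.66) were listed only after auxin. Among lineage factor genes, Mesp1 (3.55) had none after auxin and Mixl1 (5.39) was listed only then. Of 20 cell cycle and general transcription genes, the 2 with an untreated promoter peak, or 10%, were Trp53 (14.9 and 7.91) and Ccnd1 (6.56 and 4.12), both also listed after auxin, and Ccna2 (4.58) was listed only then. Of genes with an untreated summit in or near them, 38.5% over all coding genes also had one after auxin. This share was 30% for cohesin, 33.3% for lineage factor, 36.4% for insulator and 38.1% for histone genes. For cell cycle genes it was 40%, for ribosomal protein genes 44.9% and for imprinted genes 64.3%.

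Chromosome X had the lowest retained share. It was 13.6% (10.6 to 17.3) of 403 peaks, and the shares of the autosomes lay between 18.7% on chromosome 13 and 26.3% on chromosome 11. Peaks on X were weaker before auxin, with a median pileup of 21 against 28 on the autosomes, and CTCF was still called at 5.21% of them against 11.9%. In the strongest of the 5 strength groups the retained share on X was 43.2% (29.7 to 57.8) of 44 peaks, against 63.5% (62.1 to 65.0) on the autosomes, and in the second strongest group it was 25.3% (17.0 to 35.9) against 24.8% (23.5 to 26.1).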

How the data were processed

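RAD21, CTCF and MAZ ChIP-seq peak lists of E14 CTCF-degron cells were used as deposited, 1 per condition. Per the methods, chromatin carried a Drosophila spike-in, the authors mapped reads to mm10 with Bowtie 2, removed duplicates (SAMtools) and used MACS for narrow peak calls. The sources used here do not give the use of an input control, or whether any spike-in scaling entered the lists. Fold enrichment was used as the authors deposited it, a ratio of pileup to background with a pseudocount of 1 added to each, and the deposited −log10 p-value and −log10 q-value describe peaks within that list.

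Members and gene lists were chosen with earlier results of these data known. Overlap was at least 1 bp, and the overlap function, tested on 2000 planted intervals, gave the same calls as bedtools 2.31.1 in 24 comparisons of lists. Summits were placed on GENCODE basic genes of GRCm38, which is mm10, and all RAD21 peaks lay within its chromosomes. Strings were read on both strands. Named sites were, per class, the 5 peaks of highest fold enrichment and the 8 highest within 1 kb of a coding TSS, without regions of the knockout MAZ lists and without chromosome 18. From each gene list, up to 6 genes with a promoter peak were eligible. Some genes of these lists are not reported here.

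The lists hold no read totals. Whole-number pileups and backgrounds were solved from fold enrichment and p for all but 6 untreated RAD21 peaks (tolerance 0.01 on the −log10 p), and the lowest background per smallest peak width gave the depth ratio of 1.39. Shares carry Wilson 95% intervals, which cover counting error only. Alternatives were a reciprocal overlap of 50%, a −log10 q of at least 5, equal list lengths, untreated values scaled to the lower depth, other promoter and string windows, and removal of regions in the knockout MAZ lists. Analyses used Python 3.11.15, pandas 2.3.3, scipy 1.17.1 and statsmodels 0.14.6. The CTCF lists of the parental cells and the MAZ list of ΔCTCF were not used.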

Additional observations from a re-analysis of the deposited data

Results flagged for a closer look

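The MAZ lists of the knockout cells lie outside the comparison of RAD21, and most of their peaks overlapped RAD21 peaks. Of the 33 MAZ antibody peaks in ΔMAZ, 28 overlapped a RAD21 peak of ΔMAZ, and of the 33 in ΔCTCF/ΔMAZ, 27 overlapped a RAD21 peak of ΔCTCF/ΔMAZ. For reference, the WT list of 6265 MAZ peaks had 11.8% at RAD21 peaks of ΔMAZ and 9.48% at those of ΔCTCF/ΔMAZ. None of the lost RAD21 peaks, 20 of the retained untreated peaks and 3 of the auxin-only peaks overlapped such a region. Without these regions the retained share was 22.3% and the auxin-only share 26.9%.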

How the results depend on the processing

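Of 45 values under other settings, 12 lay within the 95% interval of the reported value and 33 outside it, over 17 results. The retained share of 22.4% was 20.2% with a reciprocal overlap of 50%, 20.5% with a −log10 q of at least 5 and 51.7% between the 6400 strongest peaks of each list, and the auxin-only share of 26.9% was 34.0%, 15.2% and 48.3%. With equal list lengths, the untreated list keeps its 6400 strongest peaks, so that weak untreated partners drop out. By CTCF state, the reciprocal overlap gave 79.1% (still called), 15.5% (gone) and 10.2% (none), the −log10 q limit 79.3%, 13.5% and 6.88%, and the mean over 5 strength groups 59.7% (still called) and 12.6% (none). The first of the 3 stayed highest throughout, and the order of the other two turned. CTCF peaks of ΔMAZ lay at 77.7% of lost, 83.1% of retained and 9.75% of auxin-only sites with the reciprocal overlap, which also counts poorly aligned overlaps as auxin-only, and at 83.3% of lost and 95.1% of retained sites with the q limit. Those of ΔCTCF/ΔMAZ lay at 2.38% of lost and 4.05% of auxin-only sites with the reciprocal overlap and at 3.13% of lost and 46.6% of retained sites with the q limit. With promoters drawn at 2.5 kb the shares were 17.6% (lost), 20.9% (retained) and 47.6% (auxin-only), and with the q limit 9.59% (lost) and 12.7% (retained). The CTCF core within 100 bp of the summit was at 52.3% of lost, 57.7% of retained and 6.68% of auxin-only sites, and with the q limit at 47.5% of lost and 50.3% of retained sites. With the untreated pileup and background scaled to the lower depth, which was run for the 4 retained shares alone, each stayed within its interval. No paired analysis was possible because each condition had 1 list. Weak peaks near the calling limit carry most of the auxin-only class, and their loss or gain in 1 library has no replicate check.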
